A study of Mus musculus with 2 samples.

Results

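The 41 genes described here were listed as enzymes that place methyl groups on histones and remove them, with core subunits of their complexes. They were chosen by name, as symbols listed in both libraries, out of 26549 symbols that both libraries list. By the roles assigned here, 28 of them were grouped as writers or subunits of writer complexes and 13 as erasers. The data are 2 single-cell RNA-seq libraries of ovarian cells from female ICR mice, an outbred stock, made with BD Rhapsody bead capture. Mice behind the PS-MP library were gavaged daily for 35 days from 3 weeks of age with 0.1 µm polystyrene microplastics, 1 mg per dose of 100 µL. Mice behind the control library, which a label also calls WT, received ddH2O on the same schedule. All were 8 weeks old at collection. The labels give 16 mice without saying whether per group or in all, and no cell is tied to a mouse. Each group is therefore 1 library, no test between them is possible, and exposure and library preparation cannot be told apart.

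The PS-MP library held 15056 cells with a median of 8613.5 molecules (unique molecular identifiers, UMIs) per cell, and the control library held 15373 cells with a median of 9426 UMIs. After filters, 14412 PS-MP and 14538 control cells were grouped into 19 clusters, which were named "-like" from marker genes. The granulosa-like class held 6 clusters, numbered 1, 3, 4, 5, 8 and 9, with 6676 PS-MP and 7914 control cells. Ovarian identity rested on granulosa, theca and oocyte markers that were present in their classes: Cyp17a1, the theca enzyme of androgen synthesis, stood at 1696 CPM (a gene's counts relative to all counts of the same cells) in PS-MP and 2168 CPM in control theca-like cells. All 5 theca markers summed to 2057 CPM in PS-MP and 2593 CPM in control theca-like cells, and to 833 and 897 CPM in stromal fibroblast-like cells. With each marker taken relative to its highest cluster, the mean theca score was higher in stromal fibroblast-like cluster 2 (0.587) than in theca-like cluster 7 (0.485). Cluster 0, with 2449 PS-MP and 2332 control cells, scored highest for granulosa markers, but none of the granulosa markers was among its 10 leading genes, so it is given by number. Cluster 6, luteal-like by its markers, held 1902 PS-MP cells and 8 control cells, and may be that library and not a cell type. Only 3 barcodes were found in both libraries.

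Histone methylation marks chromatin as active or silent according to the residue that carries it. Polycomb repressive complex 2 (PRC2) methylates lysine 27 of histone H3 (H3K27) at silenced genes, and H3K9 methylation marks heterochromatin. Methylation of H3K4 marks promoters and enhancers, and that of H3K36 and H3K79 marks transcribed genes. In the ovary, granulosa cells surround the oocyte, divide as the follicle grows and turn into luteal cells after ovulation, while the oocyte sets up its own chromatin for the embryo.

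Summed over all 41 genes, the level was close to even across the ovary. It was 3598 CPM (95% interval 3584 to 3612) in PS-MP granulosa-like cells, against 3766 CPM (3753 to 3779) in control granulosa-like cells. Intervals here and below cover counting error only, not differences between animals or preparations. Theca-like cells had 3236 CPM in the PS-MP and 3357 CPM in the control library, and stromal fibroblast-like cells had 3169 and 3340 CPM in the same order of libraries. Blood endothelial-like cells had 2930 CPM in the PS-MP and 3133 CPM in the control library, and macrophage or monocyte-like cells had 3113 and 3134 CPM. Among classes with at least 20 cells in each library, only plasmacytoid dendritic-like cells stood above the rest, at 5050 CPM (4656 to 5469) from 21 PS-MP cells and 4638 CPM (4423 to 4860) from 70 control cells. In plasmacytoid dendritic-like cells Kdm6b, a demethylase of H3K27, stood at 1217 CPM in the PS-MP and 900.1 CPM in the control library, against 138 and 137 CPM in granulosa-like cells. Per cell the order differed. Oocyte-like cells held 61.0 member UMIs each in the PS-MP and 83.9 in the control library, against 36.6 and 41.5 in granulosa-like cells, although their summed CPM was lower at 3107 and 3068. All UMIs per cell came to 19635 in PS-MP and 27341 in control oocyte-like cells, against 10168 and 11016 in granulosa-like cells. Each member was detected in granulosa-like cells, and 40 of 41 reached 20 CPM in at least one library. The exception was Kdm4c, an H3K9 demethylase, at 18.0 CPM in PS-MP and 19.5 CPM in control cells.

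**Figure D1:**
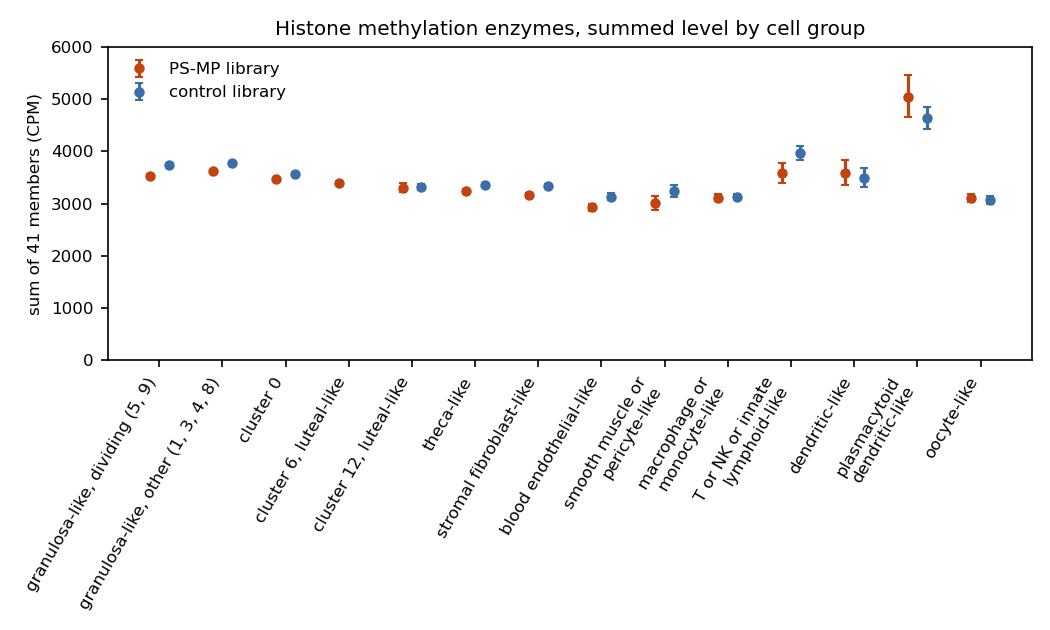
Summed level of the 41 genes in CPM (vertical axis) by cell group (horizontal axis), with PS-MP points left of control points and bars for 95% Poisson counting intervals. Plasmacytoid dendritic-like cells lie above the other groups, at 5050 CPM in the PS-MP and 4638 CPM in the control library.

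Within the granulosa-like class, clusters 5 and 9 were the dividing ones, with 20 mitosis genes summing to 6650 CPM in PS-MP and 6933 CPM in control cells, against 862 and 659 CPM in clusters 1, 3, 4 and 8. The dividing clusters held 1876 PS-MP and 1893 control cells, and the others held 4800 and 6021. The sum of the 41 genes was almost equal, at 0.974 (0.966 to 0.983) of that in the other clusters in the PS-MP library and 0.988 (0.981 to 0.995) in the control library. Single members moved apart beneath that even sum. At 1.5-fold or more in both libraries, 3 of 40 members were higher in dividing cells, against 4.81% of all genes at 20 CPM, and 3 were lower, against 5.52% of all genes. No member was among the 2000 variable genes from which the clusters were made, and the counts describe sizes, with no test. Total UMIs per cell were 12997 in PS-MP and 14829 in control dividing cells, against 9063 and 9817 in the other clusters, and the part of this in the ratios was not tested.

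Ezh2 and the Suv39h pair were the members higher in dividing cells. Ezh2, the PRC2 enzyme of dividing cells, stood at 248 CPM in dividing and 136 CPM in other granulosa-like clusters of the PS-MP library, a ratio of 1.83 (1.76 to 1.89). In the control library the levels were 264 CPM in dividing and 127 CPM in other clusters, a ratio of 2.07 (2.01 to 2.14). Suz12, the scaffold of the complex, showed a ratio of 1.39 in PS-MP and 1.53 in control cells, and Eed, which binds the methylated lysine, 1.09 and 1.24. Ezh1, the second PRC2 enzyme, went the other way, at 37.0 CPM in dividing and 49.9 CPM in other PS-MP clusters and 41.6 and 56.0 CPM in the control library, with ratios of 0.742 and 0.743. The PRC2 subunits were thus split, with the same split in both libraries.

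Suv39h1 and Suv39h2 trimethylate H3K9 in heterochromatin around centromeres. Suv39h1 was at 67.9 CPM in dividing and 36.6 CPM in other clusters of the PS-MP library, and at 67.4 and 33.6 CPM in the control library. Its ratios were 1.85 (1.73 to 1.99) in PS-MP and 2.005 (1.88 to 2.14) in control cells. Suv39h2 was at 28.0 CPM in dividing and 16.6 CPM in other PS-MP clusters, and at 33.6 and 15.2 CPM in the control library, with ratios of 1.68 (1.51 to 1.87) and 2.21 (2.01 to 2.42). The other H3K9 writers were flat: Setdb1, which silences repeats, had ratios of 0.997 and 1.04, Ehmt2 (G9a) 0.957 and 0.990, and its partner Ehmt1 0.916 and 0.923, PS-MP library first.

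The promoters of the 3 genes are shown because these members moved together with division and because E2F factors, which drive genes of DNA synthesis and division, bind a short core that can be looked for in letters. Each is the 250 bases before a RefSeq transcript start (GRCm38.p6, minus strand), printed 5′ to 3′ with any E2F core in capitals. Suv39h1 has 2 RefSeq starts. The cores searched, on both strands, were TTCCCGC first, then TTGGCGC as well as TTCGCGC and lastly TTGCCGC. The submitters' processing notes name GRCm39, and no coordinate was carried between the builds.
Suv39h2, chr2:3474987-3475236: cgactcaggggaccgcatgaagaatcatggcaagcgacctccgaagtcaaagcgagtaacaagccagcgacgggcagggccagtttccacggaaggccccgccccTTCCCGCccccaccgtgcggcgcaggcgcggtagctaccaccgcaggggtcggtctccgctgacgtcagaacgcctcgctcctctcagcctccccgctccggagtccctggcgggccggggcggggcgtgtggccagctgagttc
Ezh2, chr6:47595031-47595280: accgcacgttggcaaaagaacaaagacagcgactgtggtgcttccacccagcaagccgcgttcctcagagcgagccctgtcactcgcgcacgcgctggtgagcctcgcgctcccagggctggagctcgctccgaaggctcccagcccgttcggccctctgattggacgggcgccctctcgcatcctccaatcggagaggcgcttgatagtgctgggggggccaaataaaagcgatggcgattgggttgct
Suv39h1, upstream start, chrX:8074761-8075010: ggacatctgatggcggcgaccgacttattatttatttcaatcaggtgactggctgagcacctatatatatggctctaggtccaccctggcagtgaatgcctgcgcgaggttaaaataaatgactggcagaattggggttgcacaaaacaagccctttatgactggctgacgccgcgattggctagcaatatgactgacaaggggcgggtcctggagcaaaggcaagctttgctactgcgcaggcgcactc
Suv39h1, downstream start, chrX:8074362-8074611: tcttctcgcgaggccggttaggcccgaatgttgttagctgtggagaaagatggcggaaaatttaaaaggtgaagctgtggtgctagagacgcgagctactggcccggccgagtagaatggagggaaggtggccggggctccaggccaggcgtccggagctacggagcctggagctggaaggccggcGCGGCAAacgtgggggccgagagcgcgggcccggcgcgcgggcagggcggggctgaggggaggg

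Suv39h2 held 1 E2F core, 145 bases before its start. Suv39h1 held 1 at its downstream start, 64 bases before it and on the opposite strand, and none at its upstream start. Ezh2 held none in these 250 bases. Such a core lay in 7.89% of 32851 mouse promoters of the same length. Of the 29 members found by symbol in the promoter set used, 7 had it in at least 1 promoter: Kdm3a, Kdm5b, Kmt5a, Prmt1, Suv39h1, Suv39h2 and Suz12. A match is a run of letters and no evidence of binding. A second cell-cycle element, the CHR (TTTGAA, both strands), lay in 16.0% of promoters and in at least 1 promoter of Eed and of Suz12. For both elements the percentage is per promoter and the members are counted per gene, so the figures are unlike measures and show no enrichment.

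Setd7 was the only member grouped as an H3K4 writer to pass the 1.5-fold limit in both libraries, and it was lower in dividing cells. Setd7, which monomethylates H3K4 and other proteins, was at 24.8 CPM in dividing and 51.7 CPM in other PS-MP clusters, and at 29.2 and 58.2 CPM in the control library, with ratios of 0.480 (0.438 to 0.525) and 0.503 (0.465 to 0.543). Kmt2c and Kmt2d, the enhancer H3K4 monomethylases, showed ratios of 0.674 and 0.700 in PS-MP and 0.649 and 0.691 in control cells, just short of the 1.5-fold limit in one library or both. Kmt2a had ratios of 0.767 and 0.762 in the PS-MP and control libraries, whereas its relative Kmt2b had 0.994 and 0.972. Wdr5, a subunit common to the H3K4 complexes, had 1.18 and 1.27. Among clusters with granulosa markers, Setd1a was highest in dividing cluster 9, at 38.2 CPM in PS-MP and 40.8 CPM in control cells. Of the H3K36 writers, Nsd2 stood at 103 CPM in dividing and 74.8 CPM in other PS-MP clusters and at 128 and 80.4 CPM in the control library, with ratios of 1.38 and 1.59. Setd2, which trimethylates H3K36, and Nsd1 and Ash1l, which dimethylate it, lay between 0.825 and 0.937 in both libraries. Kmt5a, the H4K20 monomethylase whose level follows the cell cycle, had ratios of 1.21 and 1.29.

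Erasers were not higher in dividing cells by the 1.5-fold limit, and 2 were lower. Kdm5b, an H3K4 demethylase, stood at 45.3 CPM in dividing and 91.0 CPM in other PS-MP clusters, and at 46.9 and 107 CPM in the control library. Its ratios were 0.498 (0.466 to 0.533) and 0.438 (0.412 to 0.465). Kdm7a, which removes methyl groups from H3K9 and H3K27, stood at 46.3 CPM in dividing and 82.5 CPM in other PS-MP clusters and at 45.9 and 92.7 CPM in the control library, with ratios of 0.561 and 0.495. The H3K27 erasers Kdm6a and Kdm6b had ratios of 0.767 and 0.730 in the PS-MP library and 0.770 and 0.693 in the control library. The same 6 genes passed the limit when dividing cluster 9 was set against cluster 1, which shares its leading genes Inhba and Cyp19a1; there 5.19% of all genes were higher and 3.11% lower. Of 49 further histone methylation genes, 32 reached 20 CPM, none was higher and 1 was lower, the PRC2 accessory gene Phf1, at 9.27 CPM in dividing and 20.7 CPM in other PS-MP clusters and at 9.80 and 22.1 CPM in the control library.

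**Figure D2:**
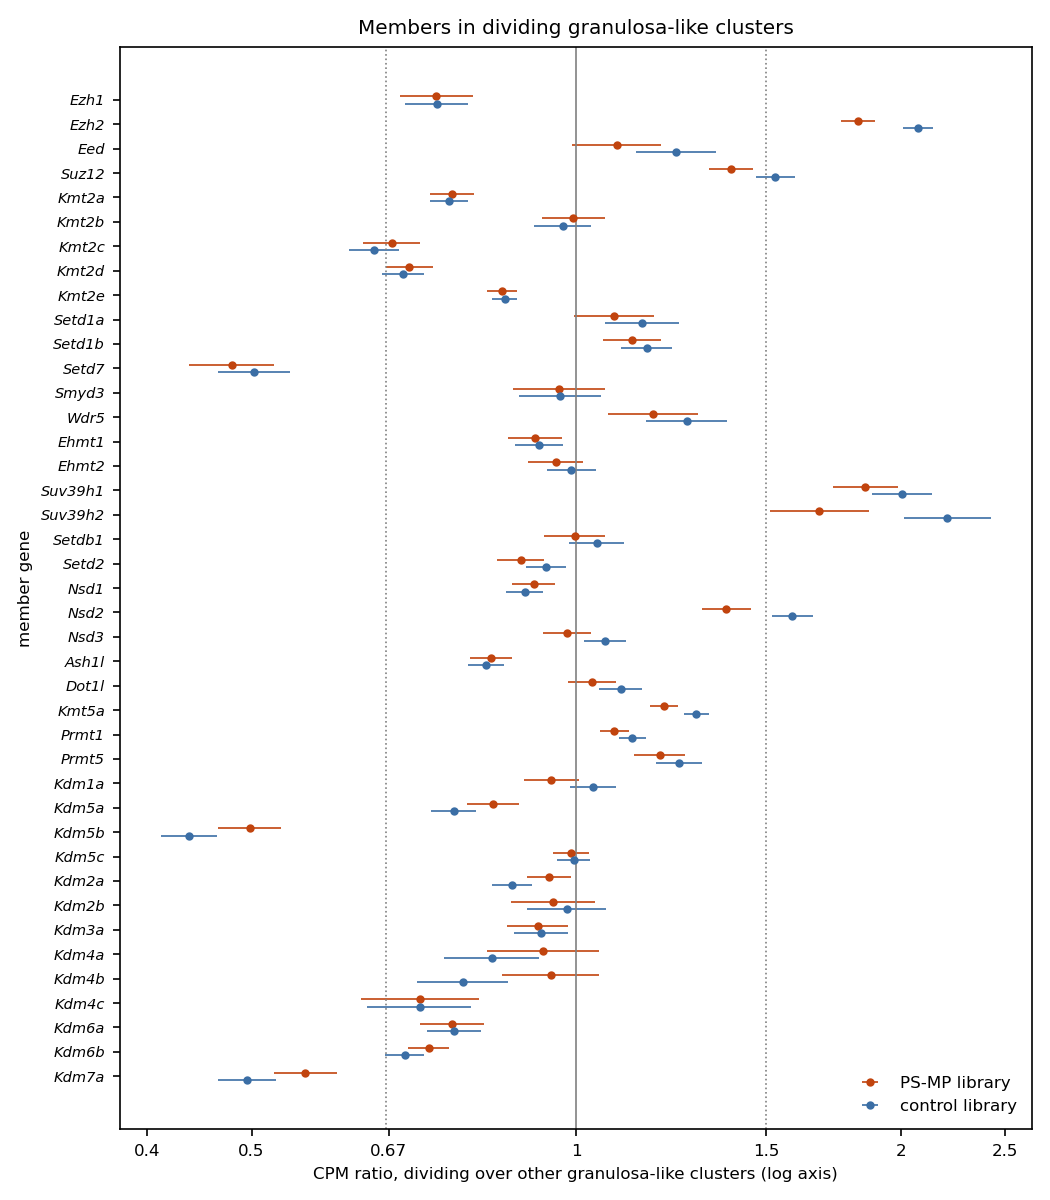
CPM of each member in dividing granulosa-like clusters over that in the other granulosa-like clusters (log axis), in the PS-MP and control libraries, with bars for 95% counting intervals and dotted lines at 1.5-fold either way. Ezh2, Suv39h1 and Suv39h2 lie right of the upper line and Setd7, Kdm5b and Kdm7a left of the lower line in both libraries.

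Division was one axis of variation. Over the 7 clusters that scored for granulosa markers (cluster 0 included), 30 members were highest in the same cluster in both libraries. The range was at least 2-fold in both libraries for 11 members and under 1.5-fold in both for 11. These counts, and those by cluster that follow, were not made over all genes. They describe the members only and cannot show a trait particular to them. Cluster 9, led by Inhbb, Grem1 and Top2a, held the highest level of 7 members, including Ezh2, Suz12, Suv39h1, Suv39h2 and Nsd2. Cluster 8, led by Pcsk6, Car4 and Gatm, held the highest level of 9, including Ezh1, Kmt2c, Kmt2d, Setd2, Kdm5b and Kdm6a. Cluster 3, led by H19, Galnt15 and Ghr, held the highest level of 6, including Setd7 and Kdm7a. Cluster 4, led by Amh, the hormone of small growing follicles, held the highest level of 5: Setdb1, Dot1l, Prmt1, Prmt5 and Kdm2b. Cluster 8 had the highest share of mitochondrial counts, at 14.1% in PS-MP and 14.3% in control cells, against 10.2% and 10.1% for the granulosa-like class, and the part of this in its values was not tested.

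Setd7 spanned the widest range. Cluster 3 had 122 CPM and cluster 9 had 13.0 CPM in the PS-MP library, a 9.37-fold range, against 140.4 and 14.8 CPM in the control library, a 9.46-fold range. For Ezh2, cluster 9 had 276 CPM and cluster 8 had 69.0 CPM in the PS-MP library, against 299.6 and 59.8 CPM in the control library. Ezh1 was highest where Ezh2 was lowest: cluster 8 had 105 CPM and cluster 9 had 31.0 CPM in the PS-MP library, against 118 and 33.1 CPM in the control library. For Suv39h2, cluster 9 had 33.8 CPM and cluster 3 had 5.65 CPM in the PS-MP library, against 39.0 and 6.24 CPM in the control library. Kmt2d stood out in cluster 8 alone, at 199.7 CPM in PS-MP and 194 CPM in control cells, while its levels elsewhere ran from 87.1 to 121 CPM in the PS-MP and from 83.4 to 127 CPM in the control library. In contrast, Nsd3, a further H3K36 writer, varied by no more than 1.15-fold in the PS-MP and 1.198-fold in the control library.

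**Figure D3:**
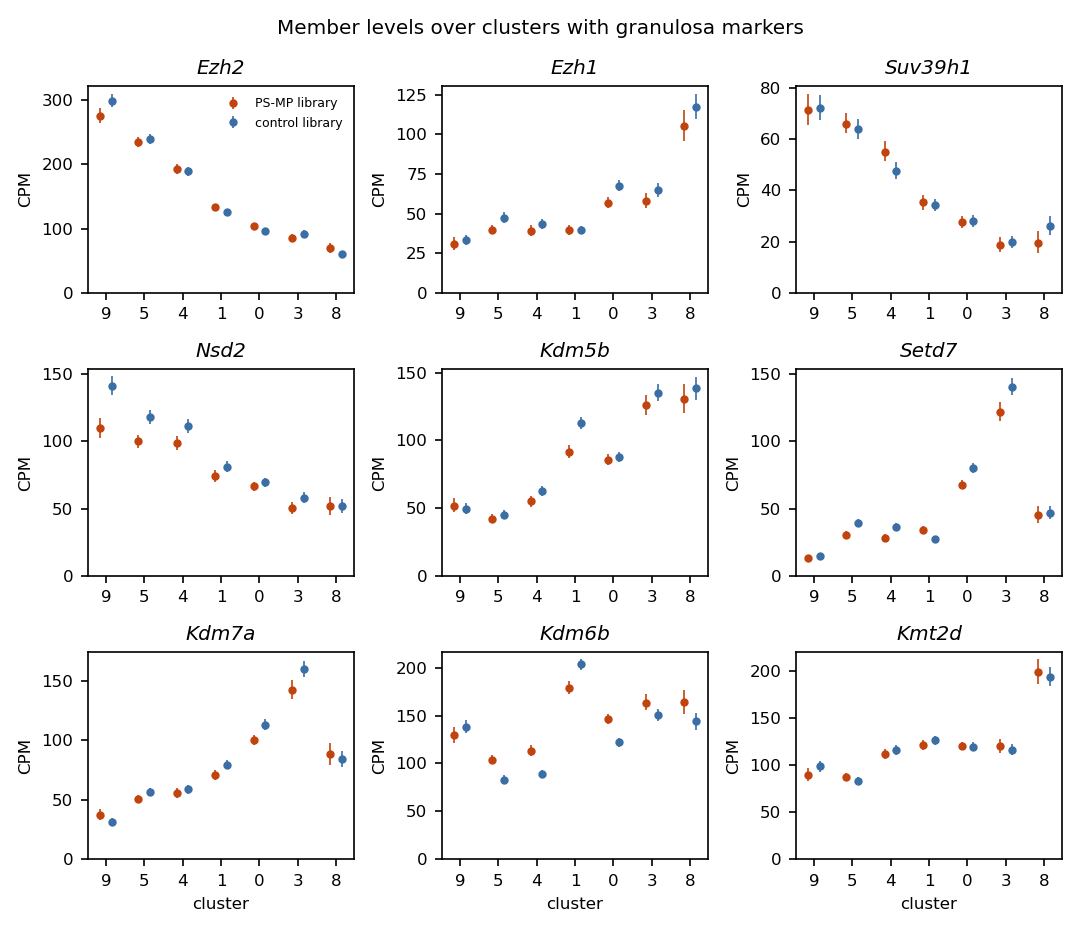
CPM of 9 members (vertical axes from 0) in each of the 7 clusters with granulosa markers (horizontal axes), PS-MP points left of control points, with 95% counting intervals. Ezh2, Suv39h1 and Nsd2 are highest in cluster 9, Ezh1 and Kmt2d in cluster 8, and Setd7 and Kdm7a in cluster 3, in both libraries.

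Across cell types, most members stayed within 2-fold of their granulosa-like level, and those that did not were mostly lower. The exception on the high side was Kdm6b in macrophage or monocyte-like cells, at 516 CPM in PS-MP and 504 CPM in control cells, with ratios to granulosa-like cells of 3.73 (3.52 to 3.95) and 3.67 (3.53 to 3.82). It was the 1 member of 40 at least 2-fold higher there in both libraries, against 15.2% of all genes. Kdm6b was also high in dendritic-like cells, at 790 CPM in 42 PS-MP and 638 CPM in 61 control cells, and in stromal fibroblast-like cells, at 269.95 CPM in PS-MP and 266 CPM in control cells. In oocyte-like cells it was low, at 78.3 CPM in PS-MP and 85.7 CPM in control cells. Its relative Kdm6a stood at 62.7 CPM in PS-MP and 57.1 CPM in control macrophage or monocyte-like cells, against 58.6 and 69.6 CPM in granulosa-like cells.

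Members higher in dividing granulosa-like cells were among those lower in other classes. Theca-like cells had 4 of 39 members at least 2-fold lower in both libraries (12.2% of all genes were), and none higher (9.52% of all genes): Ezh2, Suv39h1, Suv39h2 and Nsd2. Ezh2 stood at 59.1 CPM in PS-MP and 64.2 CPM in control theca-like cells, with ratios of 0.336 and 0.375, and Nsd2 at 34.3 and 42.3 CPM, with ratios of 0.404 and 0.442. Cluster 12, luteal-like and led by Akr1c18, Sfrp4 and Ptgfr, had these 4 and Smyd3 lower of 41, against 14.3% of all genes, and none higher, against 8.3%. Suv39h2 was at 3.24 CPM in PS-MP and 4.34 CPM in control cells of cluster 12. Mitosis genes summed to 461 CPM in PS-MP and 728 CPM in control theca-like cells and to 169 and 141 CPM in cluster 12, against 2941 and 2679 CPM in the granulosa-like class. Blood endothelial-like cells had 1436 and 1223 CPM of mitosis genes, and there Ezh2 stood at 97.1 CPM in PS-MP and 95.6 CPM in control cells. The part of division in these differences between classes was not tested.

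In blood endothelial-like cells 3 of 40 members were at least 2-fold lower, Suv39h1, Suv39h2 and Prmt1, against 14% of all genes, and none was higher, against 14.6%. In macrophage or monocyte-like cells 4 of 40 were, Suv39h1, Suv39h2, Prmt1 and Kdm5b, against 18.8% of all genes. Prmt1, the main arginine methyltransferase, stood at 102 CPM in PS-MP and 107 CPM in control macrophage or monocyte-like cells, against 238 and 224 CPM in granulosa-like cells. Kdm5b stood at 29.2 CPM in PS-MP and 30.3 CPM in control macrophage or monocyte-like cells, against 74.6 and 87.7 CPM. Stromal fibroblast-like cells had none in either direction, against 12.5% of all genes higher and 12.1% lower. Smooth muscle or pericyte-like cells had 1 lower, Suv39h1, against 11% of all genes. CPM is relative to all counts of a class, and a scaling factor from the median gene-wise ratio to granulosa-like cells came, on the log2 scale, to -0.36 in PS-MP and -0.35 in control macrophage or monocyte-like cells and to -0.26 in blood endothelial-like cells of both libraries. It was -0.21 and -0.20 in stromal fibroblast-like cells, -0.24 and -0.25 in smooth muscle or pericyte-like cells, -0.13 and -0.12 in theca-like cells and -0.12 and -0.11 in cluster 12, PS-MP library first. With that scaling, 0 members remained lower in macrophage or monocyte-like or smooth muscle or pericyte-like cells. In blood endothelial-like cells Suv39h2 alone remained lower, and in cluster 12 Smyd3 no longer passed. Kdm6b then passed as higher in stromal fibroblast-like and blood endothelial-like cells too, and Kdm7a in macrophage or monocyte-like cells. The 4 theca-like calls held under both scalings.

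Oocyte-like cells (93 in the PS-MP and 76 in the control library) differed from granulosa-like cells in other members. Ooep, a maternal-effect gene of oocytes, stood at 1749 CPM in PS-MP and 1991 CPM in control oocyte-like cells, against 1.37 and 1.80 CPM in granulosa-like cells. Of 39 members, 1 was at least 2-fold lower in both libraries, Setd7, at 18.1 CPM in PS-MP and 14.9 CPM in control oocyte-like cells, with ratios of 0.430 (0.295 to 0.605) and 0.305 (0.207 to 0.434); 8.22% of all genes were. With cells of at most 10% mitochondrial counts and at least 1000 genes, the control ratio of Setd7 was 0.55 and the call was lost. Under that filter the oocyte-like cluster was a different set, with 70 PS-MP and 107 control cells. It also scored 0.818 for T or NK or innate lymphoid markers, and no separate lymphoid cluster was formed, so that setting does not compare oocyte-like cells alone. After thinning each cell to 3500 UMIs the control ratio of Setd7 was 0.481 and the call held. None was higher in both, against 17.3% of all genes. Kmt2c lay at the limit, at 184 CPM in PS-MP and 179 CPM in control oocyte-like cells against 77.4 and 89.3 CPM, with ratios of 2.38 (2.12 to 2.65) in PS-MP and 1.999 (1.80 to 2.22) in control cells, the second just under the limit. Ezh1 had ratios of 2.14 in PS-MP and 1.66 in control cells, and Setd1b, which trimethylates H3K4, 1.62 and 1.79. The median log2 ratio of CPM + 1 over the members was -0.20 in PS-MP and -0.33 in control cells, where that over all genes at 20 CPM was 0.11 in PS-MP and 0.12 in control cells.

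Among the 49 further genes, 6 of 35 were at least 2-fold higher in oocyte-like cells of both libraries and none was lower, where 17.3% of all genes were higher and 8.22% lower. The higher count is thus at the share of all genes, and the values of single genes follow as a description. Kdm1b, the H3K4 demethylase that mouse oocytes need to set maternal imprints, stood at 417 CPM in PS-MP and 396 CPM in control oocyte-like cells, against 14.8 and 13.0 CPM in granulosa-like cells. Its ratios were 28.2 (25.6 to 31.0) in PS-MP and 30.4 in control cells. Phf1 stood at 149.5 CPM in PS-MP and 173 CPM in control oocyte-like cells, against 16.6 and 18.2 CPM. Setd4 stood at 50.4 CPM in PS-MP and 56.3 CPM in control oocyte-like cells, against 5.63 and 5.77 CPM, and the arginine methyltransferase Prmt7 at 109.5 and 103.5 CPM, against 36.3 and 36.1 CPM. Granulosa markers were counted in these cells as well. All 10 of the list had counts, summing to 3686 CPM in PS-MP and 3127 CPM in control oocyte-like cells and to 2386 and 2425 CPM in macrophage or monocyte-like cells, against 15419 and 16803 CPM in granulosa-like cells. Inha, an inhibin subunit of granulosa cells, stood at 2505 CPM in PS-MP and 1847 CPM in control oocyte-like cells, and at 1623 and 1447 CPM in macrophage or monocyte-like cells, against 10598 and 9806 CPM in granulosa-like cells. The part of such RNA in the ratios was not tested.

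**Figure D4:**
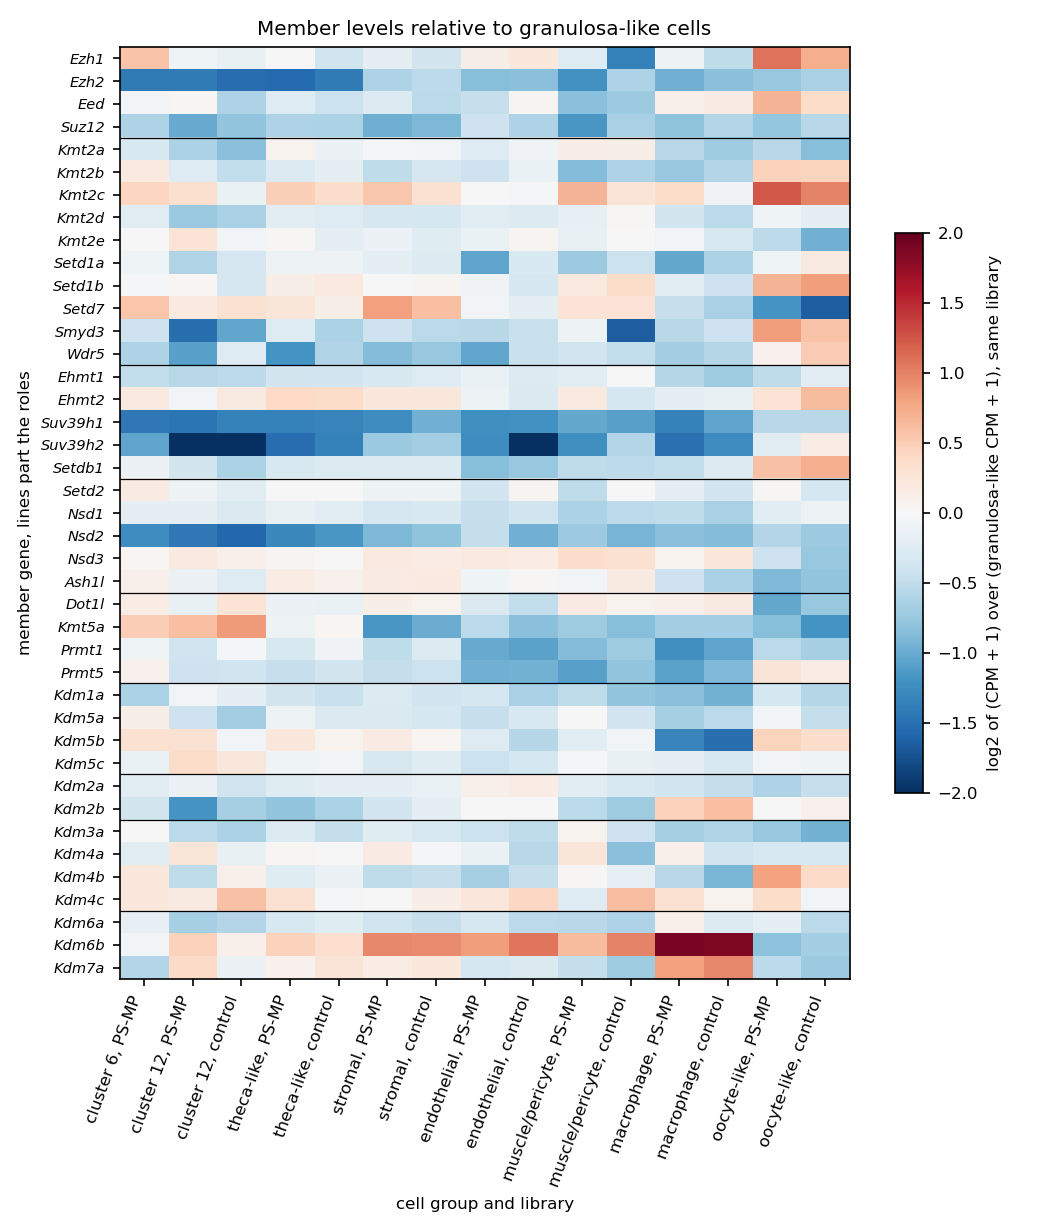
Colour gives the log2 ratio of CPM + 1 in each cell group over granulosa-like cells of the same library, from blue (lower) to red (higher) and limited to 2 either way, with members in rows by role and cell groups in columns, PS-MP left of control. The red cells of Kdm6b in macrophage or monocyte-like cells (ratios 3.73 and 3.67) and the blue row of Suv39h1 stand out.

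Cluster 6, almost wholly of the PS-MP library, was compared within that library only. Against PS-MP granulosa-like cells, 4 of 40 members were at least 2-fold lower (13.3% of all genes) and none higher (10.3% of all genes). They were again Ezh2, at 65.6 CPM in cluster 6 and 176 CPM in granulosa-like cells, Suv39h1 (17.1 and 47.8 CPM), Suv39h2 (9.47 and 20.7 CPM) and Nsd2 (35.2 and 84.9 CPM). Ezh1 stood at 67.4 CPM in cluster 6, against 45.2 CPM in granulosa-like cells, and Setd7 at 62.0 CPM, against 42.1 CPM. Of the further genes, Jarid2, a PRC2 accessory factor, had 143 CPM in cluster 6, against 36.5 CPM in granulosa-like cells. Mitosis genes summed to 585 CPM in cluster 6, against 2941 CPM in PS-MP granulosa-like cells.

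The comparison of exposure asks, as far as the study's title states it, about epigenetic changes of granulosa cells. The differences in these transcripts were small. In granulosa-like cells no member was at least 1.2-fold higher in the PS-MP than in the control library (1.57% of all genes were), and 1 of 40 was at least 1.2-fold lower (4.91% of all genes were). That one was Kdm4a, a demethylase of H3K9 and H3K36, at 18.0 CPM in PS-MP and 21.8 CPM in control cells, a ratio of 0.824 (0.767 to 0.886). Its ratio lies close to the limit, and the count was 0 with called doublets kept or with the clusters weighted alike, and 5 with cluster 6 counted as granulosa-like. The sum over the 41 genes was 0.955 (0.9504 to 0.9604) of the control sum. The median log2 ratio was -0.04 over members and -0.02 over all 7379 genes tested. The counting interval lay below 1 for 19 of 40 members, against 35% of all genes, and above 1 for 5 of 40, against 26.5%.

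By role, all 5 H3K36 writers had intervals below 1, with ratios of 0.847 to 0.940, where 35% of all genes had such an interval. Setd2 stood at 99.1 CPM in PS-MP and 117 CPM in control cells, a ratio of 0.847 (0.821 to 0.874). Nsd1 stood at 123 CPM in PS-MP and 140.3 CPM in control cells, and Ash1l at 129 CPM and 145 CPM. Among PRC2 subunits Ezh1 was at 45.2 CPM in PS-MP and 51.3 CPM in control cells, a ratio of 0.881, and Ezh2 at 176 and 171 CPM, a ratio of 1.03 (1.00 to 1.05). Under the processing alternatives the ratio of Ezh1 ran from 0.8748 to 0.9845. The direction of Ezh2 turned with the make-up of the class, at 0.986 with clusters weighted alike and 0.874 with cluster 6 counted as granulosa-like. Of the 10 members grouped here as H3K4 writers and subunits, 5 had intervals below 1 and none above, against 35% and 26.5% of all genes. Those 5 were Kmt2a, Kmt2c, Kmt2d, Kmt2e and Setd7, at 0.861 to 0.960. Under the processing alternatives the ratio of Setd7 ran from 0.861 to 0.958. H3K9 writers were mixed, with Suv39h1 at 1.07 (1.03 to 1.13) and Ehmt1 at 0.949. Suv39h1 was at 1.01 with clusters weighted alike and turned to 0.91 with cluster 6 counted. Kmt5a, at 1.05 (1.03 to 1.07), and Prmt1, at 1.06 (1.04 to 1.08), lay above 1, while Dot1l, the H3K79 writer, was at 0.994.

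Of the 13 erasers, 8 had intervals below 1 and 1 above, against 35% and 26.5% of all genes at 20 CPM. Kdm4c, which did not reach 20 CPM, is among the 8. Kdm6a, the H3K27 demethylase, stood at 58.6 CPM in PS-MP and 69.6 CPM in control cells, a ratio of 0.842 (0.809 to 0.877). Kdm5b stood at 74.6 CPM in PS-MP and 87.7 CPM in control cells, a ratio of 0.850 (0.820 to 0.881). Its ratio ran from 0.848 to 0.917 under the processing alternatives. Kdm2b, which removes H3K36 methylation, was the one above 1, at 31.6 CPM in PS-MP and 29.4 CPM in control cells, a ratio of 1.08. Kdm6b had a ratio of 1.01 in the class as a whole. Its interval lay above 1 in 5 of the 7 clusters, with 113 CPM in PS-MP and 88.9 CPM in control cells of cluster 4, and below 1 in cluster 1, with 179 and 203 CPM. Among the 49 further genes 31 reached 20 CPM, none was 1.2-fold higher and 2 were lower, Setd3 at 25.8 CPM in PS-MP and 31.9 CPM in control cells and Phf8, a demethylase of H3K9 and H4K20, at 22.45 and 27.2 CPM.

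**Figure D5:**
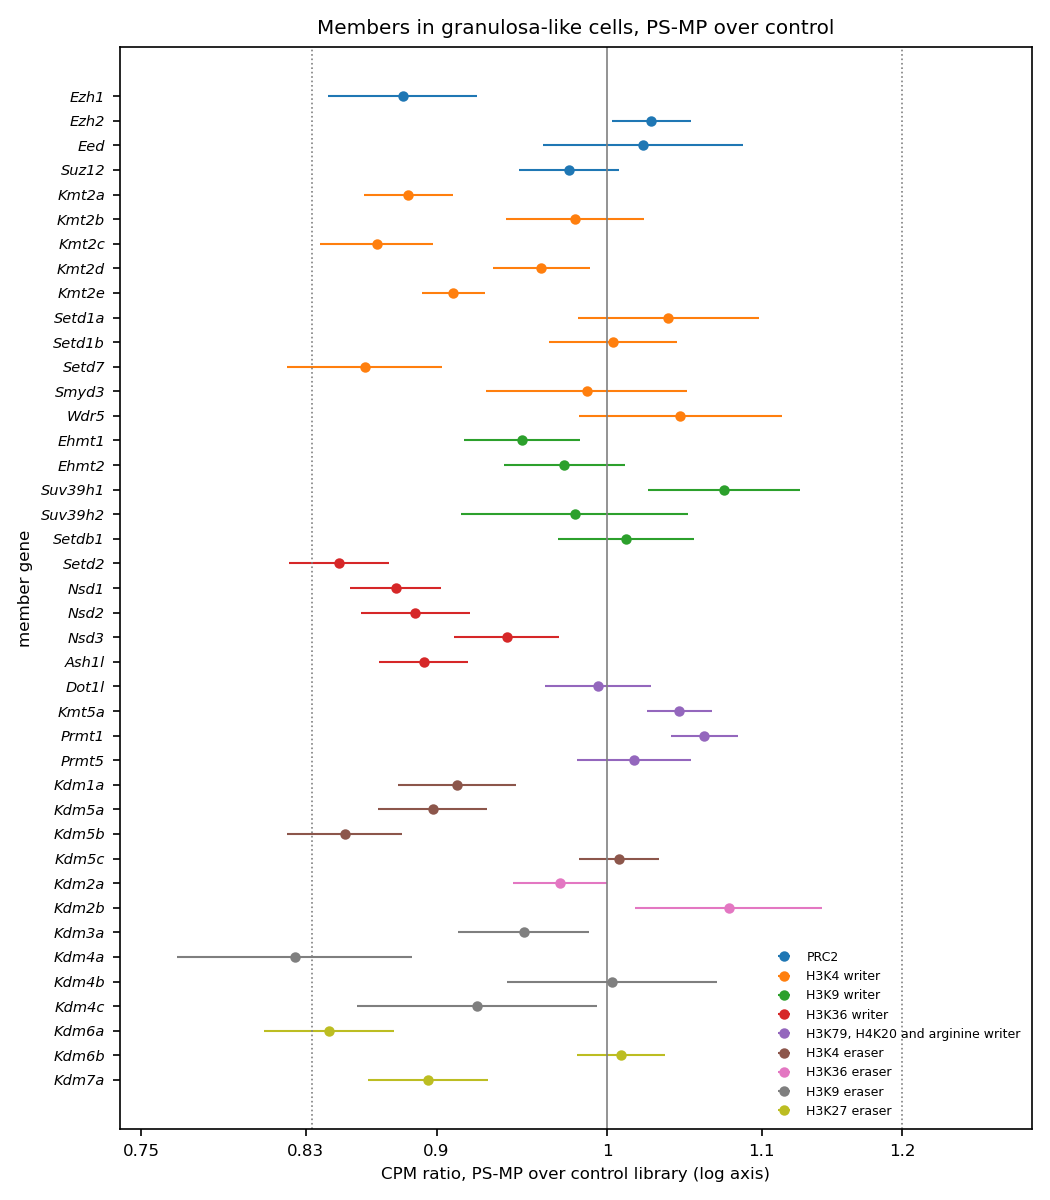
CPM in PS-MP over control granulosa-like cells (log axis) for each member, coloured by role, with 95% counting intervals and dotted lines at 1.2-fold either way. Kdm4a, at 0.824, is the 1 point past a line, and the 5 H3K36 writers lie left of 1.

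Within clusters, 8 of 40 members lay below 1 in all 7, where 10.5% of all genes did: Kmt2c, Setd2, Nsd1, Nsd2, Ash1l, Kdm5a, Kdm4a and Kdm6a. None lay above 1 in all 7, where 7.51% of all genes did. Kdm6a had its interval below 1 in every one of the 7 clusters, with ratios of 0.837 to 0.899, where 0.881% of all genes did. Nsd1 did so in 6 clusters, with ratios of 0.845 to 0.927 over all 7, and Setd2, Nsd2 and Kmt2a in 5. Single clusters passed the 1.2-fold limit for few members. In dividing cluster 9, Smyd3 and Kdm7a were higher (6.87% of all genes were) and Setd2 and Nsd2 lower (13.2%), with Nsd2 at 110 CPM in PS-MP and 141 CPM in control cells. In dividing cluster 5, Kdm6b was higher (3.63% of all genes) and Setd7 and Kdm1a lower (5.15%). In cluster 4, Kdm6b was higher (5.82%) and Setd7 lower (7.1%). In cluster 1, Setd7 was higher (6.15%) and Kmt2e, Setd2, Kdm5b and Kdm4a lower (9.66%). In cluster 3, none was higher (4.83%) and Kdm5a and Kdm4a lower (6.88%). In cluster 8, none was higher (7.56%) and Smyd3 and Suv39h1 lower (7.37%). In cluster 0, Kdm6b was higher (3.96%) and Smyd3 lower (6.24%). These counts, 0 to 2 higher and 1 to 4 lower of 39 or 40 members, lie near or under the share of all genes. The PS-MP library was the shallower one, at 10168 UMIs per granulosa-like cell against 11016 in the control library, and its part in these small ratios was not tested beyond the thinning given under the processing alternatives. The libraries also differed in their mix of clusters, with cluster 1 at 12.4% of PS-MP and 15.5% of control cells; weighting the clusters alike gave 0.961 for the sum.

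In other classes with at least 200 cells in each library, the counts stayed near or under those of all genes except in blood endothelial-like cells. Theca-like cells had 1 of 37 members at least 1.2-fold higher (5.79% of all genes) and 3 lower (9.82%): Smyd3, an H3K4 writer, was at 21.9 CPM in PS-MP and 17.0 CPM in control cells, while Nsd2, Kdm6a and Kdm7a had ratios of 0.812, 0.796 and 0.786. Stromal fibroblast-like cells had 1 of 37 higher, Eed at 22.5 CPM in PS-MP and 18.1 CPM in control cells (4.99% of all genes), and 2 lower, Nsd2 at 45.2 and 54.4 CPM and Kdm4c at 17.8 and 21.5 CPM (6% of all genes). Macrophage or monocyte-like cells had 0 of 36 higher (13.8%) and 3 lower (10.7%), with Kdm7a at 123 CPM in PS-MP and 152 CPM in control cells. Blood endothelial-like cells, with 312 PS-MP and 349 control cells, had 3 of 35 higher (12.2% of all genes) and 10 lower (18.7%). The interval excluded 1 for 1 of the 3 and 6 of the 10. There Setd2 stood at 75.8 CPM in PS-MP and 121 CPM in control cells, a ratio of 0.625 (0.517 to 0.752), and Kmt5a at 179.7 CPM and 140.4 CPM, a ratio of 1.28 (1.11 to 1.47). Over all cells summed, 1 of 40 members was at least 1.2-fold lower (8.25% of all genes) and none higher (5.74%): Kdm7a, at 72.3 CPM in PS-MP and 87.4 CPM in control cells. Cluster 12, with 129 PS-MP and 227 control cells, had 5 of 37 higher (16.8% of all genes) and 8 lower (22.4%), led by Eed at 1.64 and Wdr5 at 0.567. Over all cells, Kdm7a did not pass with median-ratio scaling or as a mean of per-cell CPM.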

How the data were processed

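Per the labels, cells were captured on BD Rhapsody beads. The submitters' processing notes name GRCm39 and Seurat; no label or header names an aligner, a counter or a version. The authors deposited raw UMI counts per gene and cell for each library, unnormalized. Cells with at least 500 genes and at most 25% mitochondrial counts were kept, which removed 286 PS-MP cells and, in the control library, 520 cells for mitochondrial share and 1 for genes. Scrublet (in scanpy 1.11.5, expected rate 0.05) removed 358 and 315 doublets. Both libraries were clustered together without batch correction (2000 variable genes, 30 principal components, 15 neighbours, Leiden resolution 0.5, leidenalg 0.10.2). Clusters were named from marker lists where at least 3 markers reached 20 CPM. For each class, the counts of its cells in a library were added up and scaled to CPM. Ratios carry exact conditional binomial 95% intervals (scipy 1.17.1). The ratio and interval functions were run on simulated counts that held counting error only, where 95.27% of intervals held the true ratio. The simulation had no differences between animals or preparations and no changed gene near the 1.2-fold limit, so it cannot speak to either. Each group is 1 library, so edgeR and other replicate tests were not run, and calls go by size: 20 CPM in one of the groups and a fold of 1.2 between libraries, 2 between classes or 1.5 for dividing cells. Log2 ratios used a pseudocount of 1 CPM. Any of the 41 members could be named, and of 49 further histone methylation genes up to 4 per comparison. Members, lists and limits were chosen with earlier results of these data known.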

Additional observations from a re-analysis of the deposited data

Results flagged for a closer look

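In 3 genes the PS-MP over control ratio ran in opposite directions in different cell groups, past 1.2-fold and with the counting interval excluding 1 in each. Setd7 had a ratio of 1.26 in cluster 1 (34.2 CPM in PS-MP and 27.1 CPM in control cells) and of 0.771 in cluster 5 (30.2 and 39.2 CPM). Smyd3 had a ratio of 1.33 in cluster 9 (25.2 CPM in PS-MP and 18.9 CPM in control cells) and of 0.794 in cluster 0 (27.7 and 34.9 CPM). Kdm7a had a ratio of 1.21 in cluster 9 (37.4 CPM in PS-MP and 30.9 CPM in control cells) and of 0.786 in theca-like cells (73.4 and 93.4 CPM). With 1 library per group the difference between the cell groups was not tested.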

How the results depend on the processing

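No paired analysis was possible because each group is 1 library and no test was run. Counts of calls have no direction to reverse, and some fell to 0, as given below. The sum ratio and the median kept their direction under the alternatives run, but PS-MP over control ratios near 1 crossed it for some genes. Of those whose interval excluded 1, Ezh2 (1.03) ran from 0.874 to 1.05 and Suv39h1 (1.07) from 0.91 to 1.14. Of those whose interval included 1, Wdr5, Dot1l and Eed were among the genes that crossed. In all, 120 of the main results' values were counted as stayed and 25 as moved, and for single genes 623 as stayed and 109 as moved. A value counted as stayed could still differ from the main one. Leaving the members out of the variable genes could move no value, because no member was among those genes. The sum ratio takes every member, so a changed CPM limit could not move it either. The counts of stayed values are therefore no measure of stability. The count of members lower in PS-MP granulosa-like cells (1) was 2 with cells of at most 10% mitochondrial counts and at least 1000 genes, 2 with cells thinned to 3500 UMIs, and 0 with doublets kept, at resolution 0.3, at 50 CPM, with clusters weighted alike or with cluster 0 counted as granulosa-like. It was 5 with cluster 6 counted, where 41.9% of the genes called were higher, against 24.3% in the main result. The sum ratio of 0.955 was 0.963 without mitochondrial and ribosomal protein counts, 0.965 with median-ratio scaling, 0.961 with clusters weighted alike and 0.943 with cluster 6 counted. In oocyte-like cells the higher count (0) was 1 with the stricter cell filter and 2 after thinning, and the lower count (1) was 0 with that filter and at 50 CPM. With the stricter filter the oocyte-like cluster also scored for lymphoid markers, so those counts are not of oocyte-like cells alone. In dividing cells the higher count (3) was 5 at resolution 0.3, after thinning and with cluster 6 counted, and the lower count (3) was 5 at resolution 0.3. In other classes the count of 23 was 39 after thinning and 15 at 50 CPM. Over all cells the count of 1 was 2 with the stricter filter and 0 with per-cell means or median-ratio scaling. The causes were not tested. Counting cluster 0 or 6, and leaving out cells with shared barcodes, were chosen after seeing the data.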
